A study of Mus musculus with 36 samples.

Results

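Aminoacyl-tRNA synthetases join each amino acid to its tRNA, the step before the ribosome reads the message. Separate nuclear genes encode the enzymes of the cytosol and those of the mitochondrion, and in mammals several cytosolic enzymes sit with the scaffold proteins Aimp1 and Aimp2 in a multi-synthetase complex. Many cytosolic synthetase genes are known targets of Atf4, the transcription factor that the kinase Gcn2 and other stress kinases switch on when amino acids run short or the endoplasmic reticulum is loaded. The intestinal epithelium renews itself within days, so its dividing cells make much protein.

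The genes described here are all those whose name in the deposited expression table holds the words tRNA synthetase, 42 of 12652 listed genes. They comprise 19 cytosolic enzymes, 2 genes whose product serves both compartments (Gars for glycine and Kars for lysine) and 17 mitochondrial enzymes. The other 4 matched by name only: Aimp1, Aimp2, Aarsd1 and Prorsd1, the last pair being relatives of synthetase editing domains. Of the 42, 10 belong to the multi-synthetase complex. A gene was tested where at least 4 of the 36 libraries reached 1 RPKM, which left 11361 genes and all 42 members, and no member had a value of 0 in any library. RPKM divide reads by gene length and by a divisor for library size, so levels can be compared between genes.

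The libraries came from intestinal organoids grown from 2 male wild-type C57BL/6 littermates aged 8 weeks, with RNA purified in duplicate from each mouse's culture. Organoids grew for 3 days in ENR medium with Wnt3a-conditioned medium, Y-27632 (a ROCK inhibitor) and CHIR99021 (a GSK3 inhibitor). At that point 4 libraries were made without treatment (0 h), and the rest of the cultures were moved to ENR medium without these additions. With the move they received a compound or DMSO, the vehicle, for 6 h or 24 h. The compounds were atRA (all-trans retinoic acid) and 9cisRA (9-cis retinoic acid), both at 10 µM, and RXRi, a retinoid X receptor antagonist, at 5 µM. This gave 9 groups of 4 libraries, with n = 2 mice in each. The mean difference between the 2 animals was removed in the fit. The p-values thus rest on how much differences between conditions varied between the cultures of these 2 animals, estimated over all 9 groups. The 0 h group had no DMSO, so vehicle, medium and time cannot be told apart in comparisons with it. Recovered reads per library were 19.6 to 30.7 M, and the members had 183 to 21178 reads per library. Markers of enterocytes (10 of 10 genes), Paneth cells (6 of 6), goblet cells (7 of 7) and stem cells (5 of 5) were all listed. Of 6 fibroblast marker genes 1 was listed, at a level of 0.426 to 1.75 RPKM.

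Promoter sequences were searched for 1 set of letters, because the members that rose with RXRi include known Atf4 targets. Of the 42 members, 32 had a window of 250 bases before to 50 bases after the start in the RefSeq promoter table (GRCm38.p6). The letters TGATGNAA, the core of the CHOP-ATF composite element, were sought on both strands. They were found in 5 members, all cytosolic or of both compartments (5 of 14 with a window, 35.7%), and in 0 of 14 mitochondrial genes with a window. These letters stood in 3.97% of all 32851 windows, and 2.66% of the tested genes with a window did. A match from each of the 5 is shown 5′ to 3′ along the gene, with the match in capitals. Gars is at chr6:55037960-55037989 (+), Aars at chr8:111033840-111033869 (+), Iars at chr13:49682126-49682155 (+), Tars at chr15:11399655-11399684 (-) and Yars at chr4:129189895-129189924 (+).
Gars: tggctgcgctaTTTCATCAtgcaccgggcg
Aars: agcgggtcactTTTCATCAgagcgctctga
Iars: cactgtcagtaTTGCATCAcctccagacgc
Tars: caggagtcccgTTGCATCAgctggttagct
Yars: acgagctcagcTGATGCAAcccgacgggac
In Gars, Aars, Iars and Tars the letters lie on the other strand, so the reverse complement appears in capitals. A match describes the letters in this window and is not evidence of binding.

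Cytosolic synthetase genes were expressed at higher levels than mitochondrial ones. The mean RPKM over the 36 libraries had a median of 50.3 over the 19 cytosolic genes (4.50 to 232) and of 9.48 over the 17 mitochondrial genes (2.76 to 51.6). Nars, the asparagine enzyme, was highest at 232 RPKM, followed by Gars at 192 and Rars, the arginine enzyme, at 136. The lowest were Ears2 (mitochondrial glutamate) at 2.76, Wars2 (mitochondrial tryptophan) at 3.34 and Pars2 (mitochondrial proline) at 3.67. When each cytosolic gene was set beside the mitochondrial gene for its amino acid, the cytosolic level was above in 17 of 18 pairs, by a median of 5.71-fold and at most 42.0-fold (Nars over Nars2). The pair that went the other way was leucine, where Lars2 averaged 51.6 and Lars 39.9 RPKM. Tarsl2, encoded by a separate gene for a threonine enzyme, stood at 4.50 RPKM against 77.7 for Tars. Across the 9 groups the mean log2 level of a member moved little: its range had a median of 0.59 for cytosolic and 0.57 for mitochondrial genes, beside 0.60 over all tested genes.

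The move to medium without Wnt3a, Y-27632 and CHIR99021 came with a fall of most synthetase genes. In DMSO at 6 h against 0 h, 32 of 42 members fell and 0 rose (limma, Benjamini-Hochberg adjusted over all tested genes, call at 0.05), while 23.4% of all tested genes fell and 22.3% rose. The fall took in 16 of 19 cytosolic genes, both dual genes, 12 of 17 mitochondrial genes, Aimp1 and Aarsd1. The median log2 fold change was -0.27 in cytosolic and -0.23 in mitochondrial genes, against -0.01 over all tested genes. Without calls were the cytosolic Qars, Wars and Tarsl2 (log2 fold changes of -0.04, -0.04 and 0.01), the mitochondrial Cars2, Fars2, Iars2, Sars2 and Wars2, and Aimp2 and Prorsd1.

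Yars, the cytosolic tyrosine enzyme, had the largest fall among cytosolic genes. Its level was 44.0, 45.6, 43.6 and 43.3 RPKM at 0 h and 32.7, 31.9, 30.3 and 29.6 RPKM at 6 h with DMSO. The groups did not overlap, and the log2 fold change was -0.50 ± 0.042 (SE, n = 2 mice per group, limma adjusted p = 2.21e-06). Mars, which charges methionine for initiation as well as elongation, went from 66.5, 67.3, 61.9 and 61.5 to 52.0, 52.1, 46.5 and 43.6 RPKM (log2 fold change -0.40 ± 0.057, limma adjusted p = 9.51e-05). Sars, the serine enzyme, fell by 0.37 on the log2 scale. Among mitochondrial genes Ears2 went from 4.61, 4.12, 3.95 and 3.92 to 3.13, 2.89, 2.73 and 2.44 RPKM (-0.50 ± 0.071, limma adjusted p = 0.000107), and Yars2 fell by 0.43. All 4 libraries at 6 h stood below all 4 at 0 h for 24 of 42 members, and for 20.4% of all tested genes.

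In DMSO at 24 h against 0 h, 29 members fell and 0 rose (15 cytosolic, 2 dual, 10 mitochondrial and 2 others), beside 30.3% of all tested genes falling and 29.2% rising. Of the 32 that were lower at 6 h, 26 were also lower at 24 h. Both comparisons share the 0 h libraries. Mars (log2 fold change -0.59), Vars, the valine enzyme (-0.59), and Gars (-0.49) changed most among cytosolic and dual genes. Between 6 h and 24 h of DMSO 8 members rose and 9 fell (19.0% and 21.4%), against 25.4% and 24.5% of all tested genes. The members' shares were thus near or below those of all genes. These counts followed the scaling: 5 rose and 16 fell after scaling to recovered read totals, and 4 rose and 21 fell after scaling to the RPKM sum. The shares of all tested genes under these scalings are not given here, so the counts show only that dependence. Vars fell from 92.1, 84.1, 84.1 and 74.0 to 62.1, 59.8, 62.7 and 60.7 RPKM (-0.44 ± 0.051, limma adjusted p = 1.07e-05), with no overlap, while Sars rose by 0.20 and Nars2 by 0.31. The call on Sars ended after scaling to the RPKM sum (log2 fold change 0.07), and that on Nars2 without mouse 1.

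Cell markers moved over the same hours. From 0 h to 24 h in DMSO 9 of 9 tested enterocyte markers rose (median log2 fold change 2.62), as did 6 of 6 Paneth (0.98) and 7 of 7 goblet markers (1.66). Over the same interval 10 of 10 cell cycle genes fell (median -0.46), as did 4 of 5 tested enteroendocrine (-0.85) markers. Of 4 tested stem cell markers 2 fell and 1 rose. At 6 h 3 of 10 cell cycle genes and 3 of 4 tested stem cell markers fell, and the summed level of the 10 cell cycle genes was 637 to 726 RPKM against 668 to 766 at 0 h. In bulk RNA, fewer cells of a type and less RNA per cell cannot be told apart, and the part of cell makeup in the fall of the synthetases was not tested.

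**Figure D1:**
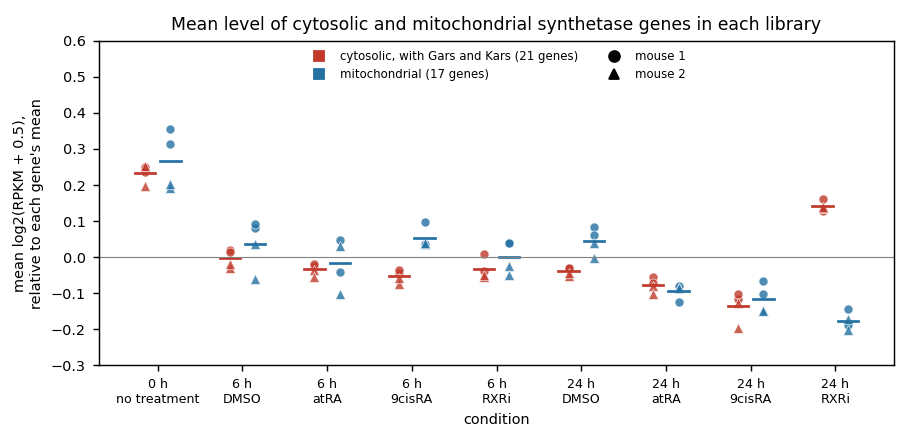
Mean log2(RPKM + 0.5) of the cytosolic and dual synthetase genes (red, 21 genes) and the mitochondrial ones (blue, 17 genes) in each library, each gene first set relative to its own mean over all libraries; circles are mouse 1, triangles mouse 2 and bars group means. The mitochondrial mean is highest at 0 h, and the classes lie furthest apart in the 24 h RXRi libraries, with the cytosolic mean between 0.13 and 0.16 and the mitochondrial mean between -0.20 and -0.14.

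With RXRi for 24 h the synthetases split by compartment. Against DMSO at 24 h, 9 members rose and 14 fell, beside 31.1% and 30.4% of all tested genes. All 9 that rose were cytosolic or dual: Wars, Cars, Aars, Sars, Lars, Rars, Nars, Yars and Gars. Of the 14 that fell, 10 were mitochondrial, 3 cytosolic (Farsb, Vars and Tarsl2) and 1 was Aimp1, whose call ended without mouse 1. Among 17 mitochondrial genes 0 rose. The median log2 fold change was 0.11 over cytosolic and -0.21 over mitochondrial genes, against 0.00 over all tested genes. By scaling, 9 to 12 members rose and 12 to 16 fell, and the cytosolic median stayed above 0 and the mitochondrial one below 0. After quantile normalization the split was 12 against 12. Shares of all tested genes under these settings are not given here.

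**Figure D2:**
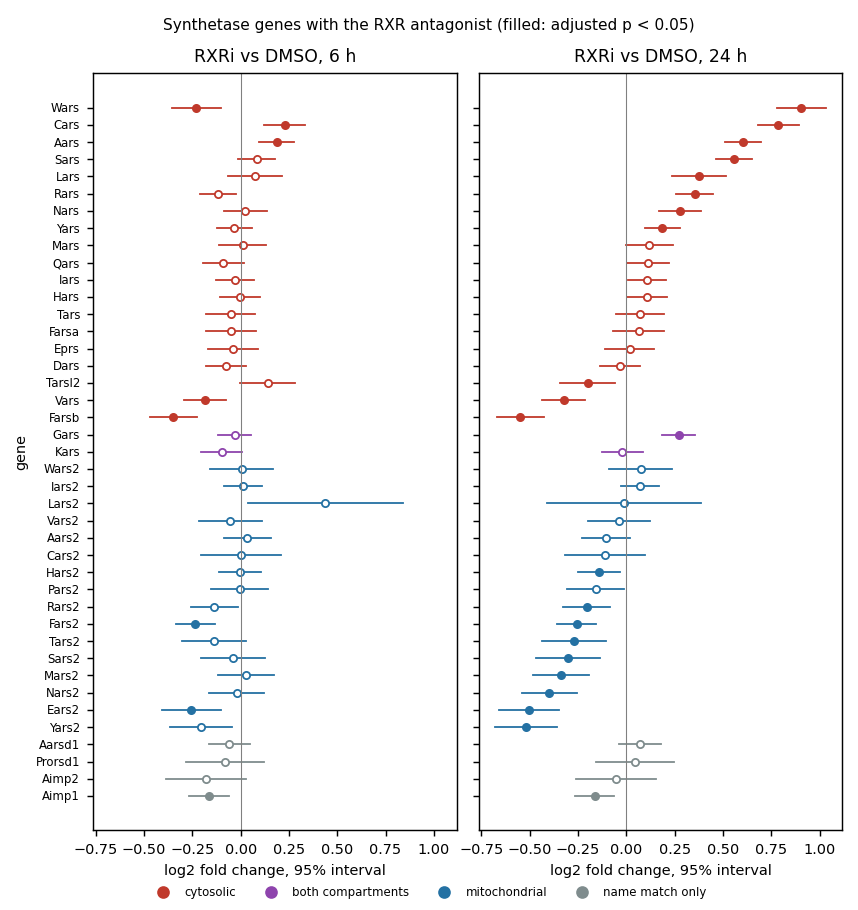
Log2 fold change of 41 of the 42 members with RXRi against DMSO at 6 h (left) and 24 h (right), with 95% intervals from limma; filled points have an adjusted p below 0.05, and colours give the class. At 24 h the filled points above 0 are all cytosolic or dual (Wars at 0.91 highest), and 9 of the 13 below 0 are mitochondrial (Yars2 at -0.52 lowest of these).

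Wars, the cytosolic tryptophan enzyme and also a known interferon-induced gene, rose most. It stood at 97.7, 91.2, 92.1 and 92.5 RPKM with DMSO and at 171, 173, 178 and 180.3 RPKM with RXRi. Every RXRi library was above every library of the other 8 groups, and the log2 fold change was 0.91 ± 0.059 (SE, n = 2 mice per group, limma adjusted p = 1.78e-08). At 6 h Wars had gone the other way: 91.6, 84.8, 76.8 and 77.8 RPKM with DMSO and 74.1, 72.7, 68.4 and 66.3 RPKM with RXRi (-0.23 ± 0.059, limma adjusted p = 0.0109). The change of its RXRi effect from 6 h to 24 h was 1.14 on the log2 scale (limma adjusted p = 4.72e-07).

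Cars, the cysteine enzyme, rose at both times. It was at 36.7, 38.8, 38.3 and 40.6 RPKM with DMSO and 46.0, 45.7, 44.7 and 44.6 RPKM with RXRi at 6 h (0.23 ± 0.049, limma adjusted p = 0.00362). At 24 h it was at 34.8, 36.1, 33.9 and 33.6 RPKM with DMSO and 60.0, 61.7, 61.3 and 57.1 RPKM with RXRi (0.79 ± 0.049, limma adjusted p = 1.16e-08). Aars, the alanine enzyme, followed the same course, at 67.6, 62.9, 62.1 and 60.2 against 72.3, 70.1, 71.5 and 73.7 RPKM at 6 h (0.19 ± 0.043). At 24 h Aars stood at 60.4, 57.9, 57.4 and 59.2 RPKM with DMSO and at 90.6, 91.4, 88.2 and 88.1 RPKM with RXRi (0.60 ± 0.043, limma adjusted p = 4.13e-08). RXRi and DMSO libraries did not overlap for either gene at either time. The 6 h call on Aars ended without mouse 2. Of the 31-base stretches of its longest protein-coding transcript (5750 bases) 22.7% are shared with Exosc6. The gene length recovered from its RPKM was 3715 bases, so the shared part of the counted sequence is not known.

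Sars went from 51.1, 50.8, 47.7 and 50.7 to 74.3, 73.2, 75.7 and 72.2 RPKM at 24 h (0.56 ± 0.044, limma adjusted p = 1.35e-07). Lars (leucine, 0.38), Rars (0.35), Nars (0.28), Gars (0.27) and Yars (0.19) rose less. Of the 9 that rose, 2 are enzymes of the multi-synthetase complex (Lars and Rars), out of 8 such enzymes, and 7 are among the 13 other cytosolic and dual enzymes. These shares are 25% and 53.8%, beside 31.1% of all tested genes, so that of the complex is near that of all genes. In the same order 0% and 23.1% fell, beside 30.4% of all tested genes. The difference between the 2 sets was not tested. Eprs, Iars, Dars, Kars, Qars and Mars, the other synthetases of the complex, had log2 fold changes of -0.03 to 0.12 and no call. Of the 9, 4 had a promoter window, and 3 of these (Gars, Aars and Yars) held the letters shown above. Of the 12 cytosolic and dual genes that did not rise, 10 had a window and 2 held them (Iars and Tars, with log2 fold changes of 0.11 and 0.07).

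**Figure D3:**
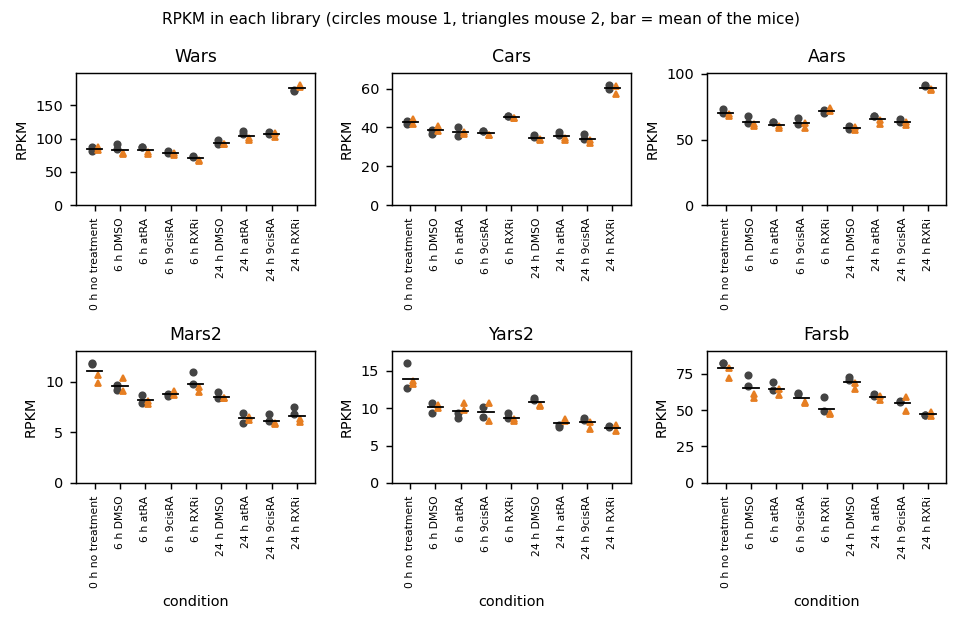
RPKM of Wars, Cars, Aars, Mars2, Yars2 and Farsb in every library of the 9 groups (circles mouse 1, triangles mouse 2, bars the mean of the mice). Wars, Cars and Aars are highest with RXRi at 24 h (Wars 171 to 180.3 RPKM against 66.3 to 112 elsewhere); Mars2 and Yars2 are low with all 3 compounds at 24 h, and Farsb is lower with RXRi at both times.

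Farsb and Farsa encode the beta and alpha subunits of the cytosolic phenylalanine enzyme, which works as a tetramer of both, and the 2 genes did not move alike. Farsb stood at 70.8, 72.6, 68.4 and 64.4 RPKM with DMSO at 24 h and at 46.6, 46.7, 46.1 and 48.6 RPKM with RXRi, with no overlap (-0.55 ± 0.056, limma adjusted p = 1.63e-06). Farsa was at 19.9, 18.3, 18.6 and 17.3 RPKM with DMSO and 19.7, 19.0, 19.1 and 19.7 RPKM with RXRi (0.06 ± 0.060, limma adjusted p = 0.383), and the groups overlapped. The difference between the subunits was not tested. Farsb was already lower at 6 h, at 66.3, 74.2, 58.3 and 60.9 RPKM with DMSO and 58.6, 49.4, 48.3 and 47.1 RPKM with RXRi (-0.35 ± 0.056). The longest protein-coding transcript of Farsb shares 11.0% of its 31-base stretches with Sgpp2. Vars went from 62.1, 59.8, 62.7 and 60.7 to 51.4, 47.7, 47.7 and 48.8 RPKM at 24 h (-0.32 ± 0.051, limma adjusted p = 0.000101). Tarsl2 fell by 0.20, a call that ended after quantile normalization, with only the compared groups in the fit, without mouse 2 and without a single 9cisRA library at 24 h (mouse 2, duplicate 1).

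Among mitochondrial genes Yars2, for tyrosine, stood at 11.2, 11.3, 10.4 and 10.3 RPKM with DMSO at 24 h and with RXRi at 7.42, 7.55, 7.71 and 6.90 RPKM (-0.52 ± 0.075, limma adjusted p = 4.42e-05). Ears2 was at 3.11, 3.09, 3.46 and 3.16 against 2.27, 1.98, 1.98 and 2.22 RPKM (-0.50 ± 0.071, limma adjusted p = 3.74e-05). Neither gene had overlapping groups. Nars2 (-0.40), Mars2 (-0.34), Sars2 (-0.30), Tars2 (-0.27), Fars2 (-0.26), Rars2 (-0.21) and Hars2 (-0.14) also fell. Aars2, Cars2, Iars2, Pars2, Vars2, Wars2 and Lars2 had no call, with log2 fold changes of -0.16 to 0.07.

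Lars2, the mitochondrial leucine enzyme, was too variable for its level to be read closely. It ranged from 25.1 to 88.3 RPKM, with 35.4 and 87.9 RPKM in the duplicates of mouse 1 at 0 h, and its 95% interval with RXRi at 24 h was -0.41 to 0.39. Its call at 6 h against 0 h with DMSO ended in 25 of 50 settings, among them that without the high 0 h library. Its longest protein-coding transcript (3894 bases) shares no 31-base stretch with the mitochondrial ribosomal RNA mt-Rnr2. The gene length recovered from its RPKM was 6886 bases, so not all of the counted sequence was searched.

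Set beside each other, the cytosolic gene had the higher log2 fold change in 16 of 18 pairs that charge the same amino acid, with a median difference of 0.49. Eprs and Fars2 each enter 2 pairs, so the pairs are not independent, and the differences were not tested. The gap was widest for cysteine (Cars 0.79, Cars2 -0.11), serine (Sars 0.56, Sars2 -0.30) and tryptophan (Wars 0.91, Wars2 0.07). Valine and phenylalanine (by Farsb) went the other way. Per library, the mean cytosolic minus the mean mitochondrial log2 level was 0.30 to 0.34 with RXRi at 24 h and -0.13 to 0.06 in the 32 other libraries.

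**Figure D4:**
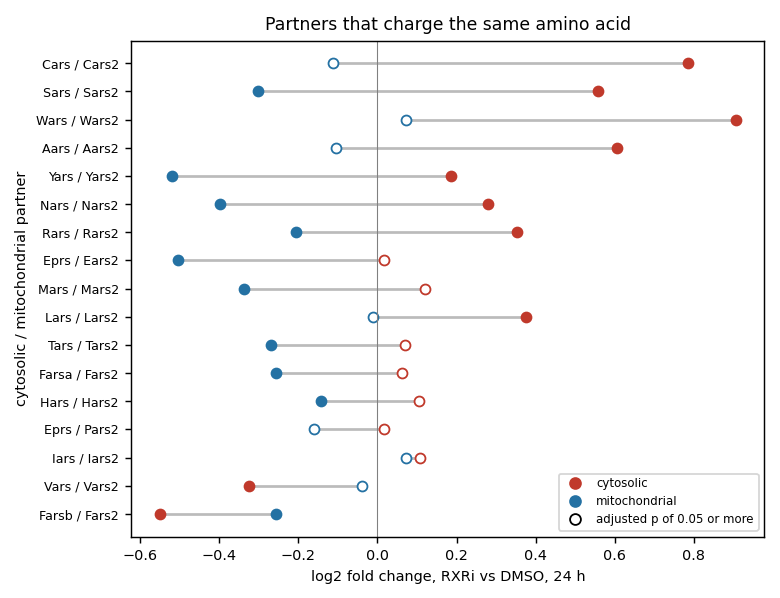
Log2 fold change with RXRi against DMSO at 24 h of the cytosolic (red) and mitochondrial (blue) gene for the same amino acid, joined by a grey line; filled points have an adjusted p below 0.05. Of the 18 pairs 17 are drawn, and the cytosolic point lies to the right in 15 of them, and to the left for Vars and Farsb.

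At 6 h RXRi had changed fewer members: 2 rose (Cars and Aars) and 6 fell (Farsb, Wars, Vars, Ears2, Fars2 and Aimp1), beside 10.6% and 14.6% of all tested genes, so the members' shares were below or near those of all genes. Without mouse 1 the count was 5 rather than 8. The calls on Vars, Ears2 and Aimp1 at 6 h ended without mouse 1, and those on Vars and Ears2 also without 1 DMSO library at 6 h (mouse 2, duplicate 1). The call on Vars also ended after quantile normalization, after scaling to the RPKM sum and without the replicate block. For Aimp1 the call also ended without mouse 2, without 6 h DMSO mouse 1 duplicate 2, or without 6 h atRA mouse 1 duplicate 2. It ended as well after quantile normalization and after scaling to the RPKM sum or to recovered read totals. The effect of RXRi differed between 6 h and 24 h for 15 members (35.7%), a share near the 35.1% of all tested genes. It was higher at 24 h for 10 and lower for 5 (23.8% and 11.9%, beside 18.6% and 16.5% of all tested genes). After scaling to recovered read totals the split was 6 and 10, and shares of all tested genes under that scaling are not given here. Before that scaling the 10 were Wars, Cars, Sars, Rars, Aars, Gars, Yars, Nars, Lars and Qars, all cytosolic or dual. Of the 5, 4 were mitochondrial, among them Nars2, Mars2 and Yars2, and 1 was Tarsl2.

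Other genes of the same pathways were read from lists. The amino acid response list holds Atf4, the kinase Gcn2 (Eif2ak4), partners of Atf4 and its known targets, but no synthetase. In it 28 of 35 tested genes rose with RXRi at 24 h and 3 fell (median log2 fold change 0.81), beside 31.1% and 30.4% of all tested genes. At 6 h 18 rose and 3 fell, beside 10.6% and 14.6%. Atf4 itself rose by 0.29 at 6 h and 0.55 at 24 h, Asns, which makes asparagine, by 0.19 and 0.95, Chac1, which degrades glutathione, by 1.53 and 2.55, and Trib3, a feedback inhibitor of Atf4, by 1.32 and 2.28. Ddit3, the stress factor also called CHOP, rose by 1.09 at 24 h. The summed level of the list was 1787 to 1842 RPKM with RXRi at 24 h against 1026 to 1044 RPKM with DMSO. In DMSO against 0 h, 4 genes of the list rose and 19 fell at 6 h (11.4% and 54.3%, beside 22.3% and 23.4% of all tested genes). At 24 h 6 rose and 18 fell (17.1% and 51.4%, beside 29.2% and 30.3%), with Trib3 (0.63) and Ddit3 (0.76) among those that rose.

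Of 21 partners of tRNA charging, 4 of which are the members matched by name only, 0 rose and 8 fell at 24 h, and the tRNA exporter Xpot had a log2 fold change of 0.05 ± 0.055 (limma adjusted p = 0.444). Mto1, which modifies mitochondrial tRNAs, fell by 0.39. Of 14 genes of mitochondrial translation 10 fell and 0 rose, among them the elongation factors Gfm1 (-0.41), Guf1 (-0.51) and Tsfm (-0.27). Of 10 genes of cytosolic elongation 1 rose and 4 fell. In shares, 38.1% of the charging partners, 71.4% of the mitochondrial translation genes and 40% of the elongation genes fell, beside 30.4% of all tested genes. The falling shares of the first and last lists are near that of all genes. In the same order 0%, 0% and 10% rose, beside 31.1% of all tested genes. The gene that rose was Eef2k, the kinase that inhibits elongation factor 2 (0.98 ± 0.059).

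With RXRi at 24 h other cell markers moved as well. All 9 tested enterocyte markers fell (median log2 fold change -4.22), as did 6 of 6 Paneth markers, 10 of 10 cell cycle genes (median -0.53) and 3 of 4 tested stem cell markers, while 4 of 7 goblet markers rose. The summed enterocyte level was 3254 to 5139 RPKM with RXRi against 11300 to 18279 RPKM with DMSO, and the summed cell cycle level was 348 to 367 against 495 to 544 RPKM. With RXRi at 6 h 0 of 10 cell cycle genes and 7 of 9 enterocyte markers were lower. The part of these markers in the synthetase changes was not tested.

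The retinoic acids had no called effect on any member at 6 h. By limma 0 of 42 members changed with atRA (2.79% of all tested genes rose and 1.87% fell) and 0 with 9cisRA (5.01% and 3.03%). At an unadjusted p below 0.05 there were 2 members with atRA (Mars2 and Vars, both lower) and 6 with 9cisRA (3 higher and 3 lower), beside 20.8% and 21% of all tested genes at that threshold, so the members' shares were below those of all genes. With the 36 libraries as separate samples the counts were 1 and 2. The count was 2 without 6 h DMSO mouse 2 duplicate 2 for atRA, and 2 without 6 h DMSO mouse 2 duplicate 1 for 9cisRA, which also had a count of 1 without any of 8 other single libraries. Leaving out Lars2, the 95% intervals of the other 41 members lay within -0.36 to 0.28 for atRA and within -0.29 to 0.31 for 9cisRA.

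At 24 h part of the family was lower with either isomer. With atRA 2 members rose and 10 fell (4.76% and 23.8%), beside 19.4% and 18.6% of all tested genes. With 9cisRA 1 rose and 19 fell (2.38% and 45.2%), beside 24.4% and 23.5%. The share of members that fell with atRA was thus near that of all genes. With atRA 7 of 17 mitochondrial (41.2%) and 3 of 19 cytosolic genes (15.8%) fell, and with 9cisRA 9 of 17 (52.9%) and 9 of 19 (47.4%). The median log2 fold change was -0.04 in cytosolic and -0.11 in mitochondrial genes with atRA, and -0.09 and -0.14 with 9cisRA. Both comparisons share the DMSO libraries, as does that of RXRi. The number of calls followed the scaling: scaling to recovered read totals gave 21 falling and 0 rising with atRA and 33 and 0 with 9cisRA. Scaling to the RPKM sum gave 27 and 0, and 37 and 0. These scalings move the median of all tested genes by up to -0.16, and the rise of Wars and Aars was called under neither. Shares of all tested genes under these scalings are not given here, so the counts do not show a fall particular to the members.

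Mars2, the mitochondrial methionine enzyme, went from 8.36, 8.96, 8.34 and 8.35 RPKM with DMSO to 5.89, 6.93, 6.23 and 6.54 RPKM with atRA (-0.39) and to 6.82, 6.07, 5.80 and 5.89 RPKM with 9cisRA (-0.44 ± 0.067, limma adjusted p = 0.000169). Neither group overlapped DMSO. Yars2 had log2 fold changes of -0.41 and -0.40.

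Of the cytosolic genes Eprs, a fused enzyme for glutamate and proline, went from 37.7, 39.2, 36.6 and 40.6 RPKM with DMSO to 34.3, 31.1, 34.5 and 30.9 RPKM with atRA (-0.23 ± 0.059, limma adjusted p = 0.00726) and 33.5, 33.8, 26.9 and 30.6 RPKM with 9cisRA (-0.30 ± 0.059, limma adjusted p = 0.001). Farsb had log2 fold changes of -0.22 and -0.33, and Tarsl2 of -0.25 and -0.40. The atRA call on Farsb ended without mouse 1 and without the replicate block (log2 fold changes of -0.19 to -0.35 over all settings), and that on Tarsl2 without either mouse. Aarsd1 fell by 0.16 with 9cisRA. That call ended without either mouse and without the 24 h DMSO library of mouse 1 duplicate 1. The longest protein-coding transcript of Aarsd1 shares 82.1% of its 31-base stretches with Gm27029.

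Wars was the member that rose with both isomers, to 107, 112, 98.1 and 101 RPKM with atRA (0.16 ± 0.059, limma adjusted p = 0.0498) and 107, 109, 108 and 102 RPKM with 9cisRA (0.19 ± 0.059, limma adjusted p = 0.0182). The groups did not overlap with DMSO (91.2 to 97.7 RPKM). The atRA call ended in 29 of 50 settings, many of them the loss of a single library, and the 9cisRA call in 4. Aars rose by 0.16 with atRA. That call ended without mouse 1, after quantile normalization and after scaling to the RPKM sum or to recovered read totals. Of the amino acid response list 7 rose and 9 fell with atRA (20% and 25.7%, beside 19.4% and 18.6% of all tested genes) and 6 rose and 15 fell with 9cisRA (17.1% and 42.9%, beside 24.4% and 23.5%). Cell cycle genes fell in 9 of 10 cases with each isomer (medians -0.56 and -0.66), and the summed cell cycle level was 394 to 402 RPKM with atRA and 350.1 to 396 RPKM with 9cisRA against 495 to 544 with DMSO. All 4 tested stem cell markers fell with each isomer (medians -0.77 and -0.80), with a summed level of 18.1 to 26.5 RPKM with atRA and 17.3 to 21.5 RPKM with 9cisRA against 37.4 to 47.8 RPKM with DMSO. Of 9 enterocyte markers 4 rose and 2 fell with atRA, and 5 rose and 2 fell with 9cisRA. The part of these markers in the fall of the synthetases was not tested. Without mouse 1 the count with atRA was 6 rather than 12.

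**Figure D5:**
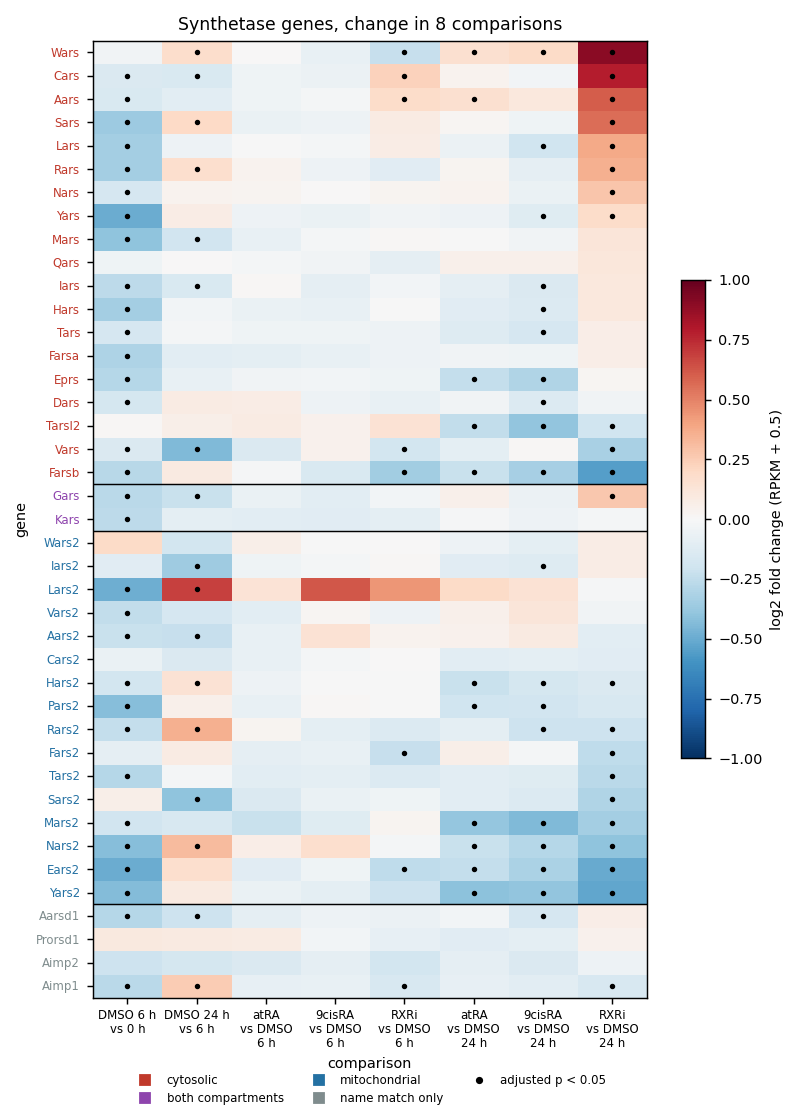
Log2 fold change (colour, red higher, blue lower) of 41 of the 42 members in 8 comparisons, with a dot where the adjusted p is below 0.05; rows are grouped by class and ordered within it by the RXRi value at 24 h. The DMSO column at 6 h against 0 h is blue for most genes, and the last column is red for most cytosolic and blue for most mitochondrial genes.

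The retinoic acids differ in the geometry of a double bond, and they were compared directly at the same dose and time. By limma 0 of 42 members differed at 6 h (1.55% of all tested genes were higher with 9cisRA and 0.167% lower) and 0 at 24 h (0.299% and 0.167%). At an unadjusted p below 0.05 there were 7 members at 6 h and 5 at 24 h, beside 15.8% and 12% of all tested genes, so the members' shares were near those of all genes. The smallest p at 6 h belonged to Aars2 (0.22 ± 0.057, limma adjusted p = 0.0783) and at 24 h to Gars (-0.11 ± 0.039, limma adjusted p = 0.294). Without Lars2 the 95% intervals of the 9cisRA minus atRA difference lay within -0.31 to 0.34 at 6 h and -0.29 to 0.23 at 24 h. With 36 libraries as separate samples 2 members differed at 6 h, and without 1 atRA library at 6 h (mouse 2, duplicate 1) 3 did. RXRi was given at 5 µM and the isomers at 10 µM, so no comparison was made between them.

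The isomers' effects changed with time for few members. For atRA 1 member was higher at 24 h relative to 6 h and 4 lower (10% and 7.11% of all tested genes), and for 9cisRA 1 and 5 (10.1% and 7.9%). Scaling to recovered read totals gave 0 and 9, and 0 and 16. Shares of all tested genes under that scaling are not given here, so these counts show only dependence on the scaling. Nars2 and Tarsl2 were lower with both isomers. The atRA count was 0 without mouse 1 and 0 without the 24 h 9cisRA library of mouse 2 duplicate 2, and 1 to 3 without mouse 2 or any of 13 other single libraries. The 9cisRA count was 3 without either mouse and 3 without the 24 h DMSO library of mouse 1 duplicate 2.

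Over the 18 means of mouse and condition, the mean profile of the cytosolic and dual synthetases was most like that of Slc1a5, a glutamine transporter (Pearson r = 0.970), among genes that are no members. Gnpat (0.953), Mtrr (0.949), Slc38a1, another glutamine transporter (0.948), and Lonp1 (0.935) followed. These values are descriptions over 18 values from the same libraries. Of single members Hars (0.937), Yars (0.933), Lars (0.920) and Gars (0.915) followed the mean most closely, and Tarsl2 (0.148), Vars (0.203) and Wars (0.268) least among cytosolic genes.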

How the data were processed

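Organoid mRNA of 36 libraries in 9 groups was analysed from the RPKM values the authors deposited for 12652 genes. The genome build mm10, STAR 2.5.2b and bcl2fastq 2.17 are named in the submitters' processing notes. The counting tool, its use of strand and the scaling are not given in the sources used here, so overlapping genes may share reads. Reads and gene lengths recovered from the steps of the RPKM values were whole for 99.97% of genes (tolerance 0.05 reads). Recovered totals were 19.6 to 30.7 M reads. The divisors for library size, 20.5 to 30.3 M, were not equal to these totals. They were below the total in every 24 h library and above it in every 0 h and 6 h library.

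Duplicates were averaged as log2(RPKM + 0.5), where the added 0.5 shrinks the changes of low genes. The 18 means were fitted in limma 3.58.1 (R 4.3.3) with 9 group means, the mouse as a block (named by the labels) and an intensity trend, with 14 comparisons, two-sided, Benjamini-Hochberg over 11361 genes, and calls at 0.05. As a check of the block, the mouse difference was correlated across conditions (median r of 0.441, 0.0372 to 0.662). The script was tested on simulated data. Alternatives changed the pseudocount, filter, scaling, variance trend, block, duplicates, groups in the fit and libraries; scaling to recovered read totals was added after seeing the data. In fits without 1 mouse the duplicates of the other served as samples.

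Members, classes and lists were chosen with earlier results of these data known. Named members are, per comparison and class, the 3 highest and 3 lowest called with the same sign in both mice, the 3 highest and 3 lowest by level, a fixed panel, up to 4 called genes per list and the 5 most alike. Other members are named to complete small counts, chosen after their values were seen. Fold changes are the log2 difference ± SE. Gene classes come from general knowledge. Results that need 1 gene or 1 promoter stretch are not reported here, though counts include them.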

Additional observations from a re-analysis of the deposited data

Results flagged for a closer look

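In 17 of 378 groups of 4 libraries, 4.50%, 1 library of a member stood apart from the other 3 by a gap that took up most of the group's range (Dixon's 95% criterion). For 4 independent values chance gives about 1 in 20. Each group here held duplicates of 2 mice, which are not independent, so that rate need not hold. At 0 h Kars was at 131 RPKM in mouse 2 duplicate 1 (others 125 to 126) and Lars2 at 87.9 RPKM in mouse 1 duplicate 2 (others 35.4 to 43.9). With atRA at 6 h the library of mouse 2 duplicate 2 was low for Vars (66.8, others 77.6 to 79.5) and Vars2 (11.2, others 13.9 to 14.2). With RXRi at 6 h the library of mouse 1 duplicate 1 was high for Gars (212, others 188 to 190.4) and Aimp2 (58.3, others 46.6 to 48.6). With 9cisRA at 6 h Vars2 was at 16.1 RPKM in mouse 1 duplicate 2 (others 13.7 to 14.03). With DMSO at 24 h Sars was at 47.7 in mouse 2 duplicate 1 (others 50.7 to 51.1) and Mars2 at 8.96 in mouse 1 duplicate 2 (others 8.34 to 8.36). With atRA at 24 h Farsa was at 18.5 in mouse 1 duplicate 2, Iars at 41.03 in mouse 2 duplicate 2 and Aarsd1 at 31.9 RPKM in mouse 2 duplicate 1. With 9cisRA at 24 h Nars2 was at 4.56 and Prorsd1 at 3.99 in mouse 2 duplicate 1, and Aimp1 at 101 RPKM in mouse 2 duplicate 2. With RXRi at 24 h Hars was at 58.6 in mouse 1 duplicate 2 and Aars2 at 4.10 RPKM in mouse 1 duplicate 1.

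The effect of a compound against DMSO differed between 24 h and 6 h, by limma's test of that difference, for the 23 reported pairs of member and compound. With atRA, 9cisRA and RXRi it differed for 5, 6 and 15 of 42 members (11.9%, 14.3% and 35.7%), counts that include pairs not reported. Of all tested genes 17.14%, 17.96% and 35.1% differed, in the same order. The members' shares were thus below or near those of all genes, and the pairs do not single out the members. Values are the log2 effect at 24 h minus that at 6 h. With RXRi they were 1.14 for Wars, 0.56 for Cars, 0.47 for Sars, 0.47 for Rars, 0.42 for Aars, 0.30 for Gars, 0.30 for Lars, 0.25 for Nars, 0.22 for Yars and 0.20 for Qars. The RXRi effect was lower at 24 h for Nars2 (-0.38), Mars2 (-0.37), Tarsl2 (-0.34) and Yars2 (-0.31). With 9cisRA they were 0.26 for Wars, -0.45 for Nars2, -0.44 for Tarsl2, -0.32 for Mars2 and -0.27 for Eprs. With atRA they were 0.20 for Aars, -0.34 for Yars2, -0.33 for Tarsl2 and -0.29 for Nars2. With atRA the call on Nars2 ended in 36 of 50 settings, that on Yars2 in 16 and that on Aars in 14, where the lowest difference for Aars was 0.054. With 9cisRA the calls on Wars, Eprs and Mars2 ended in 23, 9 and 7 of 50.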

How the results depend on the processing

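Of 82 named pairs of member and comparison, 48 kept their call in all 50 settings, 34 lost it in at least 1 and 0 changed sign. The counts with RXRi at 24 h, in DMSO over time, between the isomers at 24 h and for the change of the RXRi effect kept within 1.5 times in all 50. Other counts moved, and the cause was not tested. The shares of all tested genes under these settings are not given here, so the counts show only dependence on the processing. With 36 libraries as separate samples they were 1 (atRA, 6 h), 2 (9cisRA, 6 h), 13 (RXRi, 6 h), 2 (isomers, 6 h) and 10 (change of the 9cisRA effect). With only the compared groups in the fit they were 1 (9cisRA, 6 h), 13 (9cisRA, 24 h), 1 (isomers, 6 h), 1 (change of the atRA effect) and 3 (change of the 9cisRA effect). Without the replicate block the changes of the atRA and 9cisRA effects counted 1 and 3 members. Scaling to read totals and to the RPKM sum gave 21 and 27 (atRA, 24 h), 33 and 37 (9cisRA, 24 h), 9 and 12 (change of the atRA effect) and 16 and 18 (change of the 9cisRA effect). Quantile normalization and the RPKM sum each gave 1 for 9cisRA at 6 h, and a mean RPKM of at least 5 gave 3 for the change of the atRA effect. Leaving out 1 library or mouse gave 0 to 2 (atRA, 6 h), 0 to 2 (9cisRA, 6 h), 5 to 10 (RXRi, 6 h), 6 to 14 (atRA, 24 h), 14 to 22 (9cisRA, 24 h), 22 to 25 (RXRi, 24 h), 0 to 3 (isomers, 6 h), 0 to 6 (change of the atRA effect) and 3 to 7 (change of the 9cisRA effect). With 2 mice per group small changes can be missed. At the depth of these libraries the lowest member still had 183 reads.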
